A study of Mus musculus with 59 samples.

Results

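The genes described here encode the proteins of the cytosolic ribosome in mouse prefrontal cortex. They were chosen by name alone, as protein-coding genes in the deposited table with a symbol of a fixed form. The symbol had to begin as for a protein of the large subunit (Rpl or Rplp) or of the small subunit (Rps). A number had to follow, with at most a few set endings. Rpl36al and copies annotated as protein-coding, such as Rps27rt and Rpl10-ps3, fell outside this form. The rule found 80 genes, 49 of the large and 31 of the small subunit, among the 18088 genes in the table. Rpl10l and Rpl39l fit the rule in the annotation but have no row in the table and were not analysed here. Genes with other names that also belong to the ribosome or its precursors, such as Rpsa, Fau and Rack1, were kept as a separate list.

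RNA was sequenced from the prefrontal cortex of C57BL/6J mice on postnatal day 25, with a stranded kit that selects polyadenylated messages. The mice were wild-type (WT) or heterozygous for Ash1l (HT), a gene for a histone methyltransferase, and of both sexes. From day 3 to day 24, for 3 weeks, they took in vehicle, fluoxetine (a serotonin reuptake inhibitor) or lithium through their mother's milk. Genotype, drug and sex made 12 groups of 5 libraries, except HT lithium females with 4, or 59 libraries in all; the labels give neither the nature of the Ash1l allele nor the litter or dam. Because nothing labels separate litters or animals, p-values here reflect the spread among the samples alone. Because the tissue was measured in bulk, fewer cells of a type and less RNA per cell cannot be told apart.

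A ribosome is built from a small subunit, which reads the message, and a large subunit, which joins amino acids. Each subunit is a core of ribosomal RNA covered by proteins, most of them present in 1 copy, and the large subunit also carries a stalk of Rplp0, Rplp1 and Rplp2 that recruits elongation factors. In mammals the messages for these proteins belong to the TOP class: they begin with a C followed by a run of pyrimidines, through which mTORC1 signalling and Larp1 set how much of them is translated. Neurons use ribosomes in the cell body and also in dendrites and axons.

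In the reference sequence, start sites of this form were found in a minority of these genes, though more often than among all genes. RefSeq (GRCm38.p6) had a promoter entry, 250 bases before to 50 after the start, for 60 of the 80 genes. A C at the start itself was found in 35% of them and in 14.8% of the 11838 protein-coding genes of the table that had an entry, and a C followed by 4 pyrimidines in 20% and 2.33%. The letters CCGGAAG, the core of the site bound by ETS-family factors, stood on either strand of the promoter in 23 of the 60 (38.3%) and in 16.1% of those 11838, whereas GGGCGG, the core of the Sp1 site, was at similar shares (60% and 62.1%). These are matches of letters and not measured binding. The 80 bases from 60 before the RefSeq start are printed for 7 genes: Rpl37, Rps21 and Rps15, which passed the test in 3 of the 14 comparisons within groups below, more than any other, Rpl31 and Rpl6, which were among the genes higher after fluoxetine, Rpl22l1, the only one of the 60 with TATAAA between 40 and 20 bases before the start, and Rpl5, which moved least with the others. Capitals mark CCGGAAG or, in Rpl22l1, TATAAA. The printed stretches of Rps15 and Rpl5 hold neither. RefSeq starts need not match the gene positions given below, and the printed stretch of Rps15 ends before its annotated gene start.
Rpl37 (chr15:5116553-5116632, plus strand): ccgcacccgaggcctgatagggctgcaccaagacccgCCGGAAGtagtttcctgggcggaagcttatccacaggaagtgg
Rps21 (chr2:180257319-180257398, plus strand): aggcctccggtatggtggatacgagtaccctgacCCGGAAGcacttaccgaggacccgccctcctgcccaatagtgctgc
Rps15 (chr10:80292371-80292450, plus strand): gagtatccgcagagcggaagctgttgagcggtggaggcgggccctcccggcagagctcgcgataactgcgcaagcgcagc
Rpl31 (chr1:39367791-39367870, plus strand): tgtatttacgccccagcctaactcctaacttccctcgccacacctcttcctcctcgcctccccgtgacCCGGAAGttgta
Rpl6 (chr5:121204441-121204520, plus strand): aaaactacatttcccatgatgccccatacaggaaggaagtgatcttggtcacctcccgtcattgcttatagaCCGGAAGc
Rpl22l1 (chr3:28805448-28805527, plus strand): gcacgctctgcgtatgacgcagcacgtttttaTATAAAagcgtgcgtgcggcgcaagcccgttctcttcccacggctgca
Rpl5 (chr5:107900468-107900547, plus strand): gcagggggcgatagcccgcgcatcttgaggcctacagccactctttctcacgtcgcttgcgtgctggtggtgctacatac

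Values are normalised read counts, and the mean level of a set of genes in a library is the mean of their log2(normalised count + 1). The libraries held between 24.47 and 36.32 M reads, and all 80 genes passed the filter on low values (a normalised count of at least 10 in at least 5 libraries). A single library stood apart in the mean level of the 80 genes. WT vehicle male replicate 2 was at 10.56, and the other 4 libraries of its group lay between 10.90 and 10.96; it was as low for the large subunit (10.59, others 10.92 to 10.99) as for the small (10.52, others 10.87 to 10.97). The 80 genes took 0.543% of its reads, against 0.709% to 0.748% in the rest of the group. Not all genes were low there. Rps24 (6369, group median 4264), Rpl35 (2540, median 1493), Rpl21 (5664, median 4518) and Rpl30 (2334, median 1932) were among those highest in that library. Most were lowest in it, such as Rpl24 (613, median 1826) and Rps28 (362, median 840). The library labelled WT vehicle female replicate 3 had the highest mean level of all, 11.49, and these genes took 1.13% of its reads.

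The library labelled WT vehicle female replicate 3 also went against its label. Ash1l, the targeted gene, was at 3557 there, while it lay between 3641 and 4382 in the 29 HT libraries and between 4703 and 6218 in the other 29 WT libraries. The 5 excitatory neuron markers, among them Slc17a7, Tbr1, Neurod6 and Camk2a, summed to 86963 in it and to between 110566 and 187301 in the other 11 groups, and the 5 choroid plexus markers to 7763 against at most 1239 in those groups. None of the excitatory markers was at 0 in any library. Results that rest on this library or on WT vehicle male replicate 2 are given below with and without it.

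**Figure D1:**
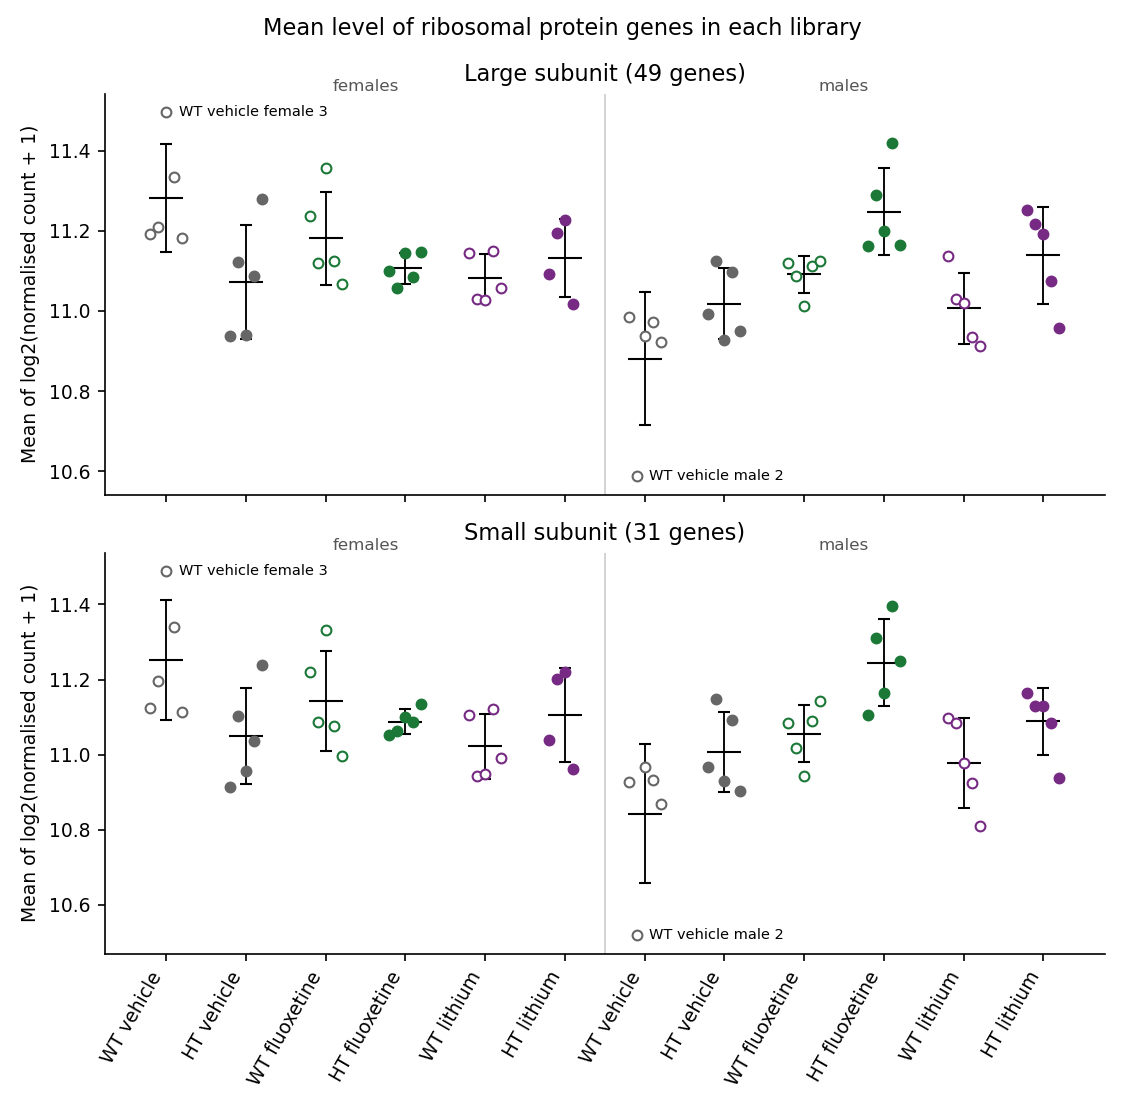
Mean log2(normalised count + 1) of the 49 large subunit genes (top) and the 31 small subunit genes (bottom) in each library, by group; open points are WT, filled points HT, grey vehicle, green fluoxetine and purple lithium, with the group mean and SD as bars. The subunits give the same picture, with WT vehicle male replicate 2 lowest and the library labelled WT vehicle female replicate 3 highest in both.

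The genes differed widely in level. Per kilobase of transcript (the median length of the gene's annotated transcripts), Rplp1, a protein of the stalk, was highest at 12282 normalised counts per kilobase, followed by Rpl3, which lies near the peptidyl transferase centre, at 11983, Rpl41 (9298), Rps24 (8799) and Rpl13a (8679). The lowest were Rpl3l (7.09), the muscle paralogue of Rpl3, Rps27 (194), Rpl12 (222), Rps27l (289) and Rps20 (490), whose annotated median length of 3706 bases lowers its value. Rpl3l reached 10 normalised counts in 11 libraries and was listed at 0 in 1, so its fold changes carry little information.

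Among the other paralogues, Rpl22l1 had a mean normalised count of 548 beside 1998 for Rpl22, and Rpl7l1, which acts in ribosome assembly, 1059 beside 4407 for Rpl7. Rpl22l1 varied more than most of the 80 genes, with a within-group SD of 0.30 on the log2 scale against 0.12 for Rpl22. In WT vehicle male replicate 2 Rpl22l1 was at 171, with 445 to 548 in the other 4 libraries of that group. In HT fluoxetine males it was at 698, 669, 620 and 712 in replicates 1 to 4 and at 390 in replicate 5.

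Rps27, a zinc-finger protein of the small subunit, has a copy, Rps27rt, with a row of its own. The sequences of the 2 were not compared here, and how the counting divided reads between them was not tested. The row of Rps27 averaged 77.4 and that of Rps27rt, a retrotransposed copy, 1255. In 47 libraries Rps27 lay between 29.0 and 88.3, and in 12 between 108 and 278, spread over both genotypes, all drugs and both sexes; the highest were WT lithium male replicate 2 (278), WT fluoxetine female replicate 1 (256), HT fluoxetine male replicate 5 (254) and WT fluoxetine male replicate 5 (218). Rps27rt was at 665, 846, 1251 and 546 in these libraries, in the same order. It ran from 546 to 2271 over the 12 libraries and from 592 to 1840 over the other 47. The sum of both rows moved more closely with the other ribosomal protein genes within groups (Pearson r = 0.61 over 59 libraries) than Rps27 alone (0.24) or Rps27rt alone (0.47).

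Other members also have copies by name, between which the authors' counting could split reads, and their single rows are uncertain. Their sequences were not compared either. By symbol, 17 of the 80 genes had a processed or retrotransposed copy with a row of its own, 20 copies in all, of which 10 averaged over 100. Rps4l, annotated as a transcribed processed pseudogene, also has a row and was not among these 20. Adding the copies raised the correlation with the other members for 9 of the 17 genes and lowered it for 8. Rpl10-ps3 averaged 2897 beside 1118 for its parent Rpl10, and adding the copies of Rpl10 moved its correlation from 0.56 to 0.84. For Rps23, whose copy Rps23-ps1 was about as abundant as the gene (1602 and 1643), the correlation rose from 0.57 to 0.84. Rps6-ps4 was listed at 0 in 57 libraries and reached 1386 in WT vehicle male replicate 2, where Rps6 itself was at 2415 against 3515 to 3659 in the rest of its group; the sum there, 3802, was above theirs. Adding this copy lowered the correlation of Rps6 from 0.88 to 0.72, that of Rpl31 went from 0.80 to 0.72 with its copy, and that of Rpl37 from 0.78 to 0.75.

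The mean level of the 80 genes was highest in WT vehicle females (11.27 ± 0.144, SD, n = 5) and in HT fluoxetine males (11.25 ± 0.108, n = 5), and lowest in WT vehicle males (10.87 ± 0.173, n = 5). Without the library labelled WT vehicle female replicate 3 the mean of WT vehicle females was 11.22 ± 0.0831 (n = 4), below that of HT fluoxetine males. Without WT vehicle male replicate 2 that of WT vehicle males was 10.94 ± 0.0278 (n = 4), still the lowest. The other 9 groups lay between 10.996 (WT lithium males) and 11.17 (WT fluoxetine females), with SDs from 0.0345 to 0.137, and neighbours in this order did not differ beyond their spread. The stalk proteins spanned different ranges: the group means of Rplp1 ran from 4668 in WT vehicle males to 8080 in WT vehicle females, and those of Rplp0 from 4304 to 5333.

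**Figure D2:**
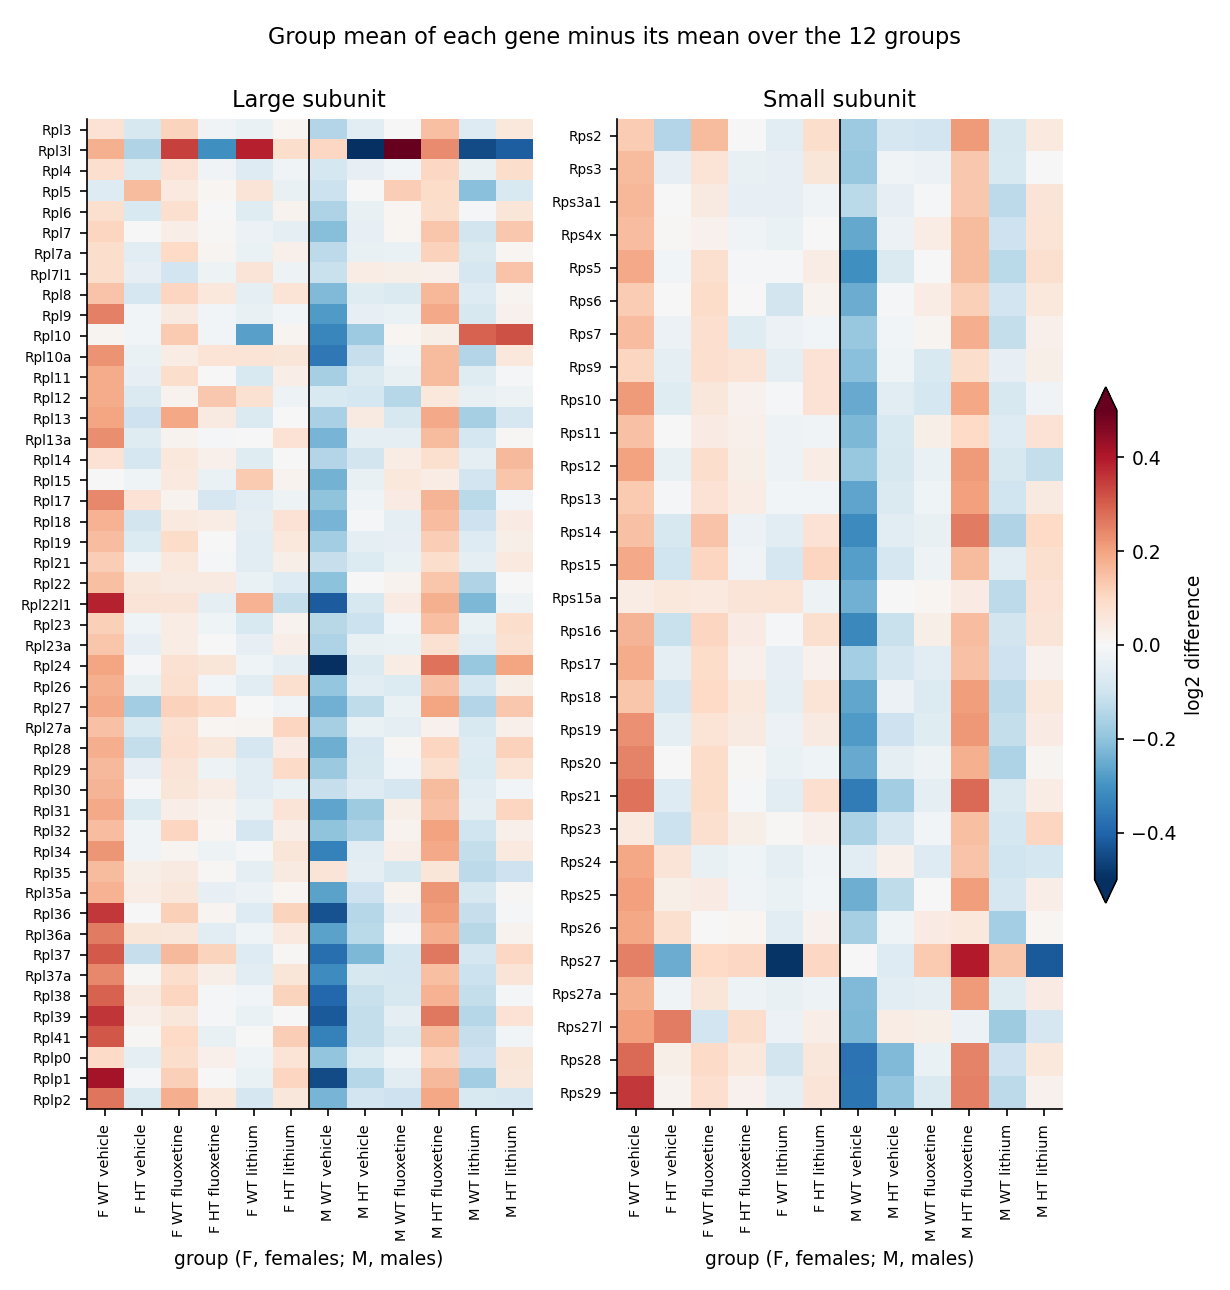
Mean log2(normalised count + 1) of the genes in each of the 12 groups minus the gene's mean over the groups, large subunit left and small subunit right, with the stalk proteins at the foot of the left panel; the colour scale ends at -0.5 and 0.5. Most rows are red in WT vehicle females and HT fluoxetine males and blue in WT vehicle males, and the rows of Rpl3l, Rps27, Rpl10 and Rpl5 follow other patterns.

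In vehicle females, 10 ribosomal protein genes were lower in HT than in WT mice and none was higher (limma with Benjamini-Hochberg adjustment over all 17875 genes tested, as for every test below; 12.5% of the 80, where 1.67% of all genes were lower). They were 6 large and 4 small subunit genes: Rpl37, Rpl19, Rpl13a, Rpl29, Rpl27 and Rpl26, and Rps21, Rps15, Rps2 and Rps10. The median log2 fold change of the 80 was -0.20, beside 0.00286 for all genes, and 77 of 80 were below 0.

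Rpl37, a zinc-binding protein of the large subunit (ENSMUSG00000041841, GRCm38 chromosome 15, 5116645 to 5119140, plus strand), had normalised counts of 1909, 2109, 2472, 2148 and 2105 in WT vehicle females and 1273, 1633, 1578, 1703 and 1858 in HT vehicle females, in replicate order. The groups did not overlap, which held for 2 of the 80 genes in this direction and for 1.54% of all genes. Rpl37 fell by 0.42 ± 0.105 (SE) on the log2 scale (adjusted p = 0.0135). Rps21, a small subunit protein (ENSMUSG00000039001, chromosome 2, 180257377 to 180258445, plus strand), was at 1796, 2014, 2662, 2209 and 1951 in WT and at 1403, 1757, 1564, 1809 and 1835 in HT vehicle females. These ranges overlapped, with the library labelled WT vehicle female replicate 3 the highest, and the log2 fold change was -0.34 ± 0.0897 (adjusted p = 0.0193). Rps15, near the decoding centre (-0.29 ± 0.0771, adjusted p = 0.0197), Rpl19 (-0.22, adjusted p = 0.0233), Rps2 (-0.27, adjusted p = 0.0319) and Rps10 (-0.27, adjusted p = 0.0326) followed.

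None of these calls held without the library labelled WT vehicle female replicate 3. Without it 0 of the 80 genes passed, and the log2 fold changes were -0.37 for Rpl37 (adjusted p = 0.0942) and -0.25 for Rps21 (adjusted p = 0.144). The median of the 80 was then -0.16. Not every call came from a high value in that library, since for Rps2 it was the lowest of its group (7773, where the highest was 8795). The count was also 0 after removal of trends with GC content and length, and 0 in a fit of only the groups compared. Without HT vehicle female replicate 5, which had the highest mean level of its group, 36 passed. The count was 2 to 5 without HT vehicle female replicate 1, 2, 3 or 4 or WT vehicle female replicate 4, and 21 and 17 without WT vehicle female replicates 1 and 5. Counts in reduced or alternative fits, here and below, are for the 80 genes alone. The share of all genes called in the same fit is not given, so a change in count need not be particular to these genes. Markers of other cells were also below 0 in this comparison: all 5 of oligodendrocytes (median -0.56, 0 past the test), all 5 of blood (median -0.34, 0 past the test) and all 5 of endothelium (median -0.17, of which Cldn5 fell). The oligodendrocyte markers summed to between 57941 and 123769 in HT and between 91057 and 233822 in WT vehicle females, and none of the 3 lists held a gene at 0. Their part in the result was not tested.

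In vehicle males the difference pointed the other way and no gene passed (0 of 80 with limma, where 0.00559% of all genes did; 34 of the 80 at an unadjusted p under 0.05, and 0 with edgeR or DESeq2). The unadjusted p was under 0.05 for 6.94% of all genes. The median was 0.16, and 76 of 80 genes were above 0. The smallest p-values were those of Rps6, the target of S6 kinase (0.24 ± 0.0722, adjusted p = 0.705), and of the X-linked Rps4x (0.23 ± 0.0714, adjusted p = 0.705). Rps4x was at 3594, 2818, 3718, 3645 and 3623 in WT and at 3811, 4432, 3903, 4371 and 3833 in HT vehicle males. All 5 HT values were above all WT values, as for 4 of the 80 genes and 0.302% of all genes. Without WT vehicle male replicate 2 the median was 0.08.

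The test of the difference between the sexes found 25 genes (14 large and 11 small subunit; 31.2% of the 80, where 1.14% of all genes passed in this direction), all with a lower HT-to-WT ratio in females. The median difference was -0.35. Rps15 (-0.48 ± 0.109, adjusted p = 0.0247), Rps10 (-0.47, adjusted p = 0.028), Rpl19 (-0.35), Rps21 (-0.51), Rpl9 (-0.51) and Rpl13a (-0.48), the last 4 at an adjusted p of 0.0282, had the smallest p-values, and the stalk protein Rplp1 the largest difference (-0.72). The outlying Rplp1 values of WT vehicle male replicate 2 and the library labelled WT vehicle female replicate 3, given above, enter this difference. Its size without them is not given here. The count was 0 after removal of trends with GC content and length and in a fit of only the groups compared. It was also 0 without WT vehicle male replicate 2 or 3, HT vehicle male replicate 2 or 4, HT vehicle female replicate 4, or the library labelled WT vehicle female replicate 3, each left out alone. Without HT vehicle female replicate 2 the count was 1, without replicate 1 or 3 of that group it was 9 and 10, without WT vehicle female replicate 4 it was 9, and without HT vehicle female replicate 5 it was 51. The median without the last of these 6 was -0.28.

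Under the drugs no ribosomal protein gene passed limma's threshold between the genotypes. In fluoxetine females 0 of 80 passed with limma, where 1.95% of all genes did (median -0.06; Rpl3 -0.13, adjusted p = 0.231, and Rps2 -0.16, adjusted p = 0.332), with 1 at an unadjusted p under 0.05 and 0 with edgeR or DESeq2. In fluoxetine males 0 of 80 passed with limma, where 0.386% of all genes did, 39 had an unadjusted p under 0.05, and DESeq2 called 5 and edgeR 0. In a limma fit without WT vehicle male replicate 2 and the library labelled WT vehicle female replicate 3, which enter only through the shared spread, 10 passed. In the main fit the median in fluoxetine males was 0.18, and Rps2 (0.31, adjusted p = 0.0583) and Rps21 (0.33, adjusted p = 0.0691) had the smallest p-values. In these males 14 of the 80 genes were higher in every HT than in every WT library, where 1.33% of all genes were. Rps21 was at 1929, 2129, 2145, 2380 and 2056 in HT fluoxetine males and at 1814, 1805, 1481, 1711 and 1639 in WT. In lithium females (median 0.07; Rps15 0.19, adjusted p = 0.611; Rpl29 0.15, adjusted p = 0.632) and lithium males (median 0.13; Rpl7 and Rpl7l1 both 0.23, with adjusted p of 1) 0 passed with limma, where 0.00559% of all genes did in each, with 2 and 19 at an unadjusted p under 0.05 and 0 with edgeR or DESeq2. Averaged over drugs and sexes 0 of 80 differed, where 0.358% of all genes did (median 0.04; Rps18 0.09, adjusted p = 0.379; Rpl7 0.06, adjusted p = 0.575), with 7 at an unadjusted p under 0.05 and 0 with edgeR or DESeq2. Over all genes, the share at an unadjusted p under 0.05 was 15.6% in fluoxetine females and 15.6% in fluoxetine males. It was 7.65% in lithium females, 3.7% in lithium males and 8.1% on this average.

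In HT males 13 ribosomal protein genes were higher with fluoxetine than with vehicle and none was lower (16.2% of the 80, where 2.58% of all genes were higher). They were 6 large and 7 small subunit genes, among them Rpl32, Rpl37, Rpl35a, Rpl31 and Rpl3 of the large subunit and Rps21, Rps25, Rps2, Rps29, Rps19, Rps27a and Rps15 of the small. The median was 0.23, and 78 of 80 genes were above 0. In 19 of the 80 every fluoxetine library was above every vehicle library, where this held for 2.74% of all genes.

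Rpl32 (ENSMUSG00000057841, chromosome 6, 115805505 to 115808747, minus strand) was at 1962, 1949, 1830, 2143 and 1864 in HT vehicle males and at 2308, 2595, 2280, 2864 and 2459 in HT fluoxetine males. The ranges did not overlap, and Rpl32 rose by 0.36 ± 0.0646 on the log2 scale, or 1.28-fold (adjusted p = 0.000887). Rps21 went from 1608, 1644, 1423, 1739 and 1341 to the values given above for HT fluoxetine males, again without overlap (0.46 ± 0.0897, adjusted p = 0.00204). Rpl37 went from 1608, 1397, 1348, 1842 and 1286 to 1955, 2085, 2142, 2265 and 1963, also without overlap (0.49 ± 0.105, adjusted p = 0.00417). Rps25 (0.34, adjusted p = 0.00892), which some viral internal ribosome entry sites need, Rpl35a (0.33, adjusted p = 0.0115), which is mutated in some cases of Diamond-Blackfan anaemia, and Rpl31 (0.32, adjusted p = 0.018) followed.

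Leaving out HT fluoxetine male replicate 4, the library with the highest mean level in its group, left 3 calls. Leaving out HT vehicle male replicate 1, 3 or 5 left 8, 6 and 7, and leaving out HT fluoxetine male replicate 1 gave 21. The count was 41 in a fit without WT vehicle male replicate 2 and the library labelled WT vehicle female replicate 3, which enter this comparison only through the shared estimate of the spread. After removal of trends with GC content and length, 6 of the 13 remained, among them Rpl32, Rps21 and Rpl37. In the same libraries the astrocyte markers Aqp4 and Gja1 (2 of 5) and the endothelial markers Flt1 and Itm2a (2 of 5) fell and none of either list rose. All 5 oligodendrocyte markers were below 0 (median -0.40, 0 past the test), with sums from 62807 to 126942 with fluoxetine and from 96941 to 151912 with vehicle, and none of these 3 lists held a gene at 0. Their part in the result was not tested.

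**Figure D3:**
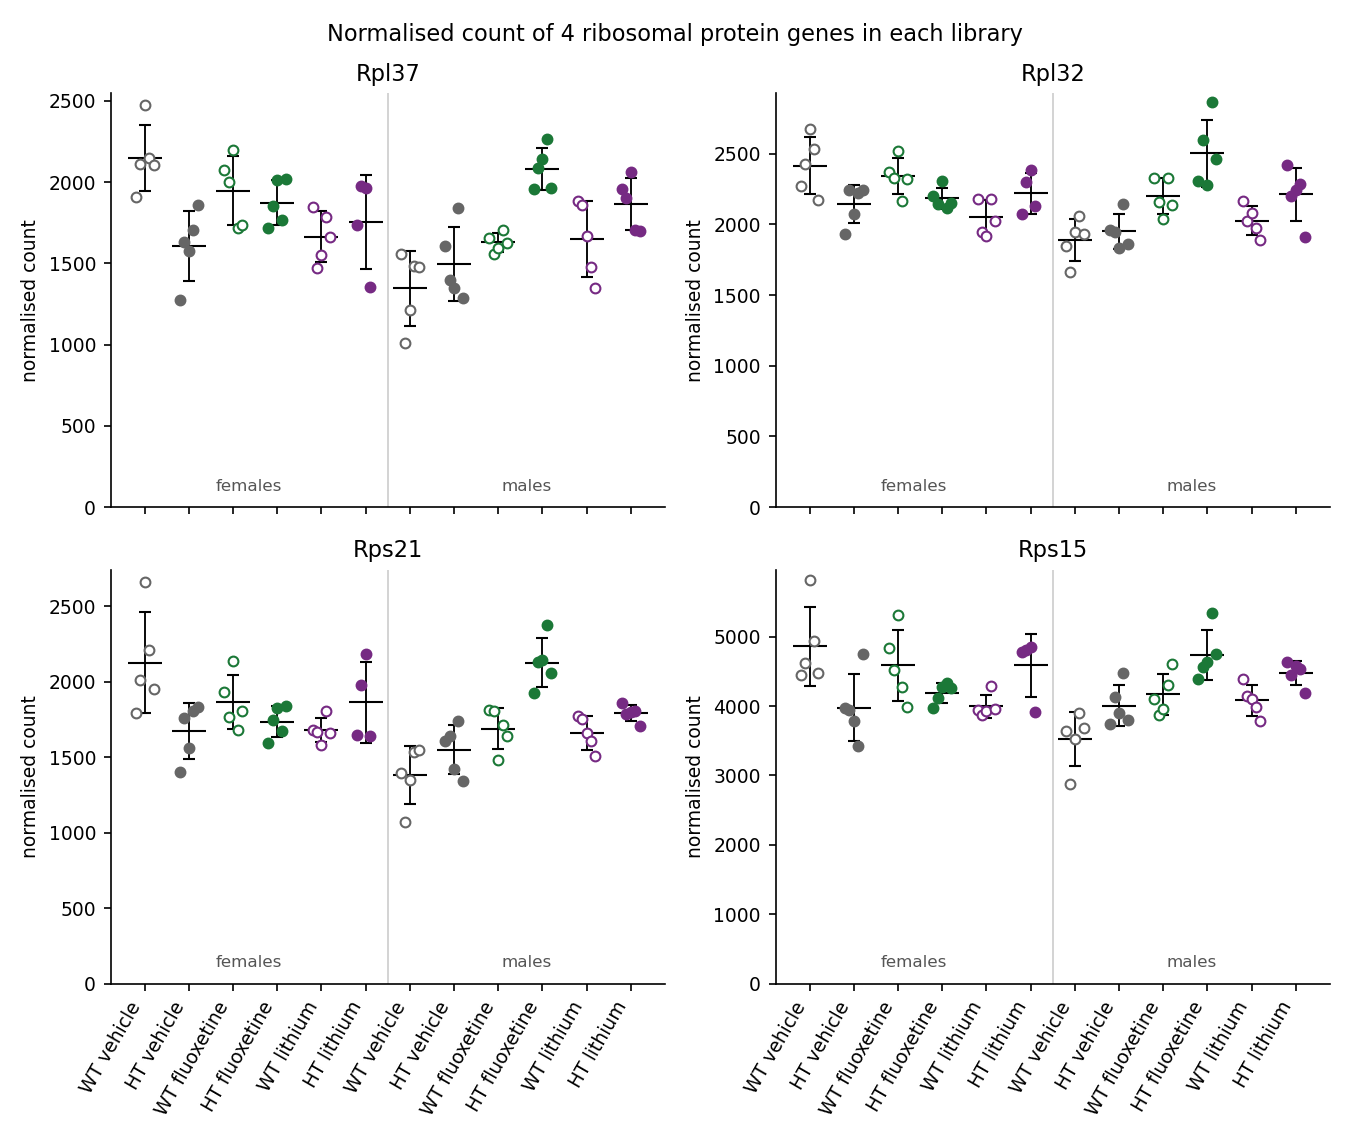
Normalised counts of Rpl37, Rpl32, Rps21 and Rps15 in each library, by group (open points WT, filled points HT; grey vehicle, green fluoxetine, purple lithium; bars, mean and SD). HT fluoxetine males lie above HT vehicle males without overlap for Rpl37, Rpl32 and Rps21, and the library labelled WT vehicle female replicate 3 is the highest of its group in all 4 panels.

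In WT males 2 genes rose with fluoxetine, Rps4x and Rps6 (2.5% of the 80, where 0.414% of all genes were higher), and the median was 0.22. Rps4x was at 4490, 4330, 4170, 4106 and 4120 with fluoxetine, all above the vehicle values given above (0.29 ± 0.0714, adjusted p = 0.0344), and Rps6 rose by 0.29 ± 0.0722 (adjusted p = 0.0379). The row of Rps6 may share reads with Rps6-ps4, which was at 1386 in WT vehicle male replicate 2, as given above. In 17 of the 80 genes the groups did not overlap, where 1.96% of all genes were higher in this way. Without WT vehicle male replicate 2 the median was 0.13 and 0 passed (Rps4x 0.22, adjusted p = 0.129; Rps6 0.17, adjusted p = 0.161). Leaving out WT fluoxetine male replicate 1, 2, 4 or 5 also gave 0, and replicate 3 gave 1; leaving out WT vehicle male replicate 4 or 5 gave 4 and 6.

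In females no ribosomal protein gene passed the threshold with fluoxetine. In WT females 0 of 80 passed with limma, where 2.85% of all genes did (13 at an unadjusted p under 0.05, all lower; 0 with edgeR or DESeq2), with a median of -0.10 that was -0.04 without the library labelled WT vehicle female replicate 3. Rpl7l1 (-0.18, adjusted p = 0.173) and Rpl13a (-0.21, adjusted p = 0.175) had the smallest p-values. In HT females 0 of 80 and 0 of all genes passed (2 of the 80 at an unadjusted p under 0.05; 0 with edgeR or DESeq2), with a median of 0.02; Rpl27 was at 0.27 (adjusted p = 0.614) and Rpl37 at 0.23 (adjusted p = 0.632). An unadjusted p under 0.05 was held by 16.4% of all genes in WT females, near the share of the 80, and by 7.66% in HT females.

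The response to fluoxetine was tested for a difference between the sexes, averaged over genotypes, a comparison chosen after these values were seen. In 12 genes (9 large and 3 small subunit; 15% of the 80, where 0.375% of all genes passed in this direction) the log2 change with fluoxetine was lower in females than in males, and the difference was below 0 in all 80, with a median of -0.24. Rpl35a (-0.40 ± 0.0809, adjusted p = 0.00839), Rps25 (-0.39 ± 0.0799, adjusted p = 0.00839), Rps21 (-0.44, adjusted p = 0.00868), Rpl32 (-0.30, adjusted p = 0.0174), Rps4x (-0.32, adjusted p = 0.0219) and Rpl17 (-0.41, adjusted p = 0.0282) had the smallest p-values. Without the library labelled WT vehicle female replicate 3 the count was 5, and without it and WT vehicle male replicate 2 it was 3; any other single library left out gave between 5 and 14. Rpl35a was past the threshold without either of the 2 libraries (adjusted p = 0.0162 and 0.0183). The test of a difference between the genotypes found 0 of 80 with limma, where 0.0392% of all genes passed (median 0.08; 6 at an unadjusted p under 0.05; 0 with edgeR or DESeq2), with Rpl37 at 0.28 (adjusted p = 0.236) and Rpl12 at 0.29 (adjusted p = 0.271). The unadjusted p was under 0.05 for 12.5% of all genes in this test.

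Averaged over genotype and sex, 15 genes were higher with fluoxetine and none was lower (18.8% of the 80, where 6.94% of all genes were higher). They were Rpl32, Rpl37, Rpl3, Rpl6, Rpl27, Rpl31, Rpl14 and Rpl8 of the large subunit and Rps21, Rps2, Rps16, Rps18, Rps15, Rps14 and Rps23 of the small. The changes were small: Rpl32 rose by 0.14 ± 0.0323, or 1.10-fold (adjusted p = 0.00239; 15 of 20 fluoxetine libraries above the vehicle mean of their genotype and sex), Rpl37 by 0.22 ± 0.0525 (adjusted p = 0.0044; 16 of 20) and Rpl3 by 0.11 ± 0.0282 (adjusted p = 0.00543; 18 of 20). Rps21 (0.16), Rpl6 (0.09) and Rps2 (0.14) followed with adjusted p of 0.0131, 0.0138 and 0.0139. After removal of trends with GC content and length 6 of the 15 remained. All 15 remained among 22 called without the library labelled WT vehicle female replicate 3, and 11 of them were the calls without WT vehicle male replicate 2. The median of the 80 was 0.09 and that of all genes 0.00721. By genotype and sex the median was 0.22 in WT males and 0.23 in HT males, but -0.10 in WT females and 0.02 in HT females. The average thus mostly reflects the males. Of the 15, 11 had a promoter entry and 6 of these held CCGGAAG, as did 17 of the other 49.

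**Figure D4:**
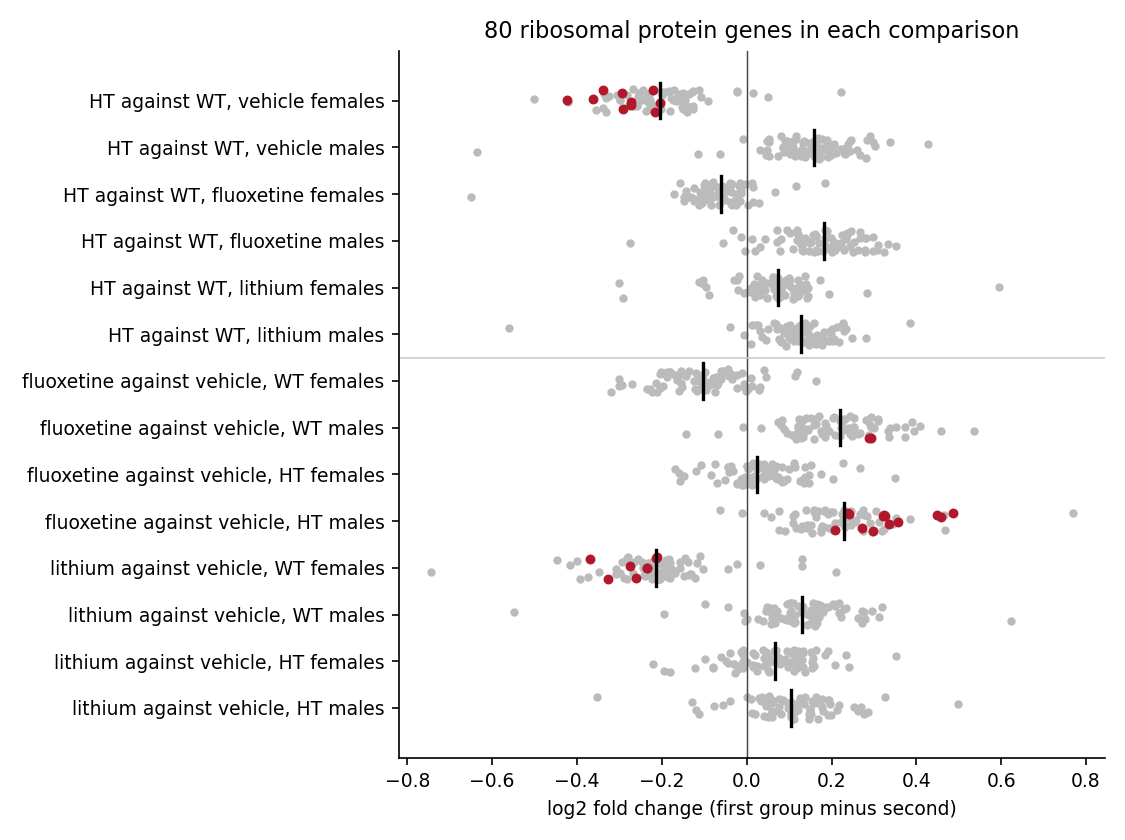
Log2 fold changes of the 80 genes in the 14 comparisons within groups (1 point a gene; red, past the adjusted threshold of 0.05; black line, median). Whole clouds shift to 1 side of 0: down for HT against WT in vehicle females and for lithium in WT females, where no gene passes without the library labelled WT vehicle female replicate 3, and up for HT against WT in males and for fluoxetine in males.

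Lithium was compared with the same vehicle libraries as fluoxetine, so the results of the drugs are not independent of each other. In WT females 8 genes were lower with lithium (10% of the 80, where 0.694% of all genes were lower): Rps21 (-0.33 ± 0.0897, adjusted p = 0.0399), Rpl32 (-0.24, adjusted p = 0.0403), Rps15 (-0.28, adjusted p = 0.0416), Rpl37 (-0.37, adjusted p = 0.0435), Rpl26 (-0.24, adjusted p = 0.045) and Rpl11 (-0.26, adjusted p = 0.0451), which binds Mdm2 when ribosome assembly is disturbed, and further Rpl29 and Rpl19. The median was -0.21. In 24 of the 80 genes every lithium library was below every vehicle library, where this held for 3.22% of all genes.

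Rps15 (ENSMUSG00000063457, chromosome 10, 80292453 to 80294114, plus strand) was at 4453, 4625, 5813, 4939 and 4470 in WT vehicle females and at 3938, 3875, 3931, 4287 and 3952 in WT lithium females. The groups did not overlap, and 4 of the 5 lithium libraries lay close together, between 3875 and 3952. Without the library labelled WT vehicle female replicate 3 none of the 8 passed (Rps21 -0.24, adjusted p = 0.209), the median was -0.16, and leaving out WT vehicle female replicate 4 or WT lithium female replicate 2, 3 or 5 also gave 0. The count was 1 and 2 without WT lithium female replicates 1 and 4, 4 without WT vehicle female replicate 2, and 14 and 13 without WT vehicle female replicates 1 and 5. The blood markers were lower with lithium in the same libraries (5 of 5 below 0, median -0.75, 0 past the test; summed counts from 5205 to 12361 against 9052 to 20205, none at 0), and their part in the result was not tested.

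In the other strata 0 of 80 passed with lithium, where 0.476% of all genes did in WT males, 2.98% in HT females and 0.252% in HT males. The medians were 0.13 in WT males (21 at an unadjusted p under 0.05; Rpl10 0.62, adjusted p = 0.117, a row that may share reads with its copies, and Rps21 0.28, adjusted p = 0.119), 0.07 in HT females (4; Rps2 0.23, adjusted p = 0.101; Rps15 0.21, adjusted p = 0.134) and 0.10 in HT males (16; Rpl14 0.25, adjusted p = 0.119; Rpl31 0.28, adjusted p = 0.126). In HT lithium females Rps15 was at 4777, 4800 and 4853 in replicates 1 to 3 and at 3913 in replicate 4, which stood apart. Neither edgeR nor DESeq2 called any of the 80 in these 3 strata. An unadjusted p under 0.05 was held by 15.1% of all genes in WT males, 20.3% in HT females and 12.3% in HT males. The average over genotype and sex had 0 of 80 past the threshold (5 at an unadjusted p under 0.05; DESeq2 called 1 and edgeR 0), while 13.1% of all genes changed; its median was 0.03, and Rpl15 was closest at 0.12 ± 0.0441 (adjusted p = 0.0556), then Rpl31 at 0.10 (adjusted p = 0.112). The tests of a difference between genotypes (median 0.13; Rpl29 0.19, adjusted p = 0.419; Rpl32 0.18, adjusted p = 0.42; 15 at an unadjusted p under 0.05) and between sexes (median -0.19; Rpl37 -0.43 and Rps25 -0.30, both with an adjusted p of 0.535; 48 at an unadjusted p under 0.05) found 0 of 80 and 0 of all genes with limma and 0 of 80 with edgeR or DESeq2, and the second was chosen after these values were seen. Over all genes, the share at an unadjusted p under 0.05 was 27.2% for the lithium average. It was 9.51% for the difference between genotypes and 5.82% for that between sexes.

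Averaged over genotype and drug, 0 of 80 differed between females and males with limma, where 0.117% of all genes did (42 at an unadjusted p under 0.05, all higher in females; edgeR called 0 and DESeq2 2). The unadjusted p was under 0.05 for 12.4% of all genes. The median was 0.07, 76 of 80 were above 0, and Rpl38 (0.18, adjusted p = 0.0694) and Rpl41 (0.17, adjusted p = 0.0792), the smallest of the ribosomal proteins, were closest to the threshold. Rps4x, Rpl10, Rpl36a and Rpl39 are on the X chromosome, and their differences were 0.04, -0.05, 0.11 and 0.13, with adjusted p between 0.292 and 0.86.

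Within groups the 80 genes rose and fell together from library to library. After the group mean was taken from each value, the means of the large and small subunit correlated at r = 0.95 over the 59 libraries, and a gene correlated with the mean of the other 79 at a median of 0.77; 55 genes were above 0.7. These correlations share library, depth and scaling, and are descriptions. The exceptions were Rpl5 (0.03), Rpl35 (0.10), Rpl3l (0.18) and Rps27 (0.24), followed by Rpl15 (0.31) and Rps24 (0.33). Rpl35 and Rps24 were the highest of their group in WT vehicle male replicate 2, as given above, which enters their values. Without that library and the library labelled WT vehicle female replicate 3, the subunit means correlated at 0.94 and the median was 0.76. In that setting 53 genes were above 0.7 and 3 were under 0.3, where 4 were under 0.3 with all libraries.

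Rpl5, which carries the 5S ribosomal RNA into the large subunit together with Rpl11, was the clearest exception at an ample level (mean normalised count 1352). In WT vehicle females it was at 1257, 1200, 1338, 1379 and 1226, and in HT vehicle females at 1340, 1722, 1288, 1976 and 1261. It was thus not lower in the HT libraries, where most other genes were, and the library labelled WT vehicle female replicate 3 did not hold its highest value. Its within-group SD was 0.20 on the log2 scale, against 0.07 for Rpl4 and Rpl6, the steadiest of the 80.

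**Figure D5:**
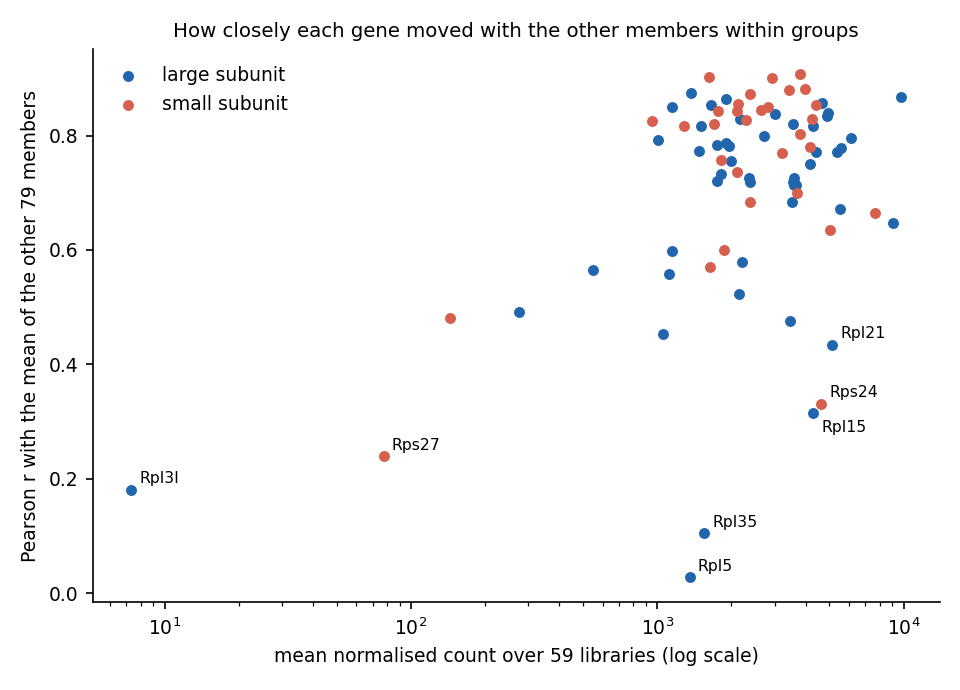
Pearson correlation of each gene with the mean of the other 79 within groups, over 59 libraries, against its mean normalised count (log axis); blue, large subunit, red, small subunit. Most genes lie above 0.7, and Rpl5 and Rpl35 lie near 0 at counts over 1000.

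Outside the 80, the genes whose level followed their mean most closely over the 59 libraries, again within groups, were Gm11808 (r = 0.86), Fau (0.84), which encodes the small subunit protein made as a ubiquitin-like fusion, the respiratory chain genes Cox4i1 (0.82) and Ndufb7 (0.82), and 2410015M20Rik (0.82). The mean of the 80 ran against that of the excitatory neuron markers (r = -0.63, and -0.52 without the 2 libraries named above) and with the association of a library's values with GC content across genes (r = 0.56). The 80 genes have shorter transcripts than the table as a whole (median 704 against 2145 bases). Their part in the results was not tested beyond the removal of the trends with GC content and length.

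The other genes of translation were read from lists. In HT against WT vehicle females, Fau (-0.30, adjusted p = 0.0353) and Rpsa (-0.23, adjusted p = 0.043) fell, and Rack1, a scaffold on the small subunit, was at -0.10 (adjusted p = 0.469). Without the library labelled WT vehicle female replicate 3 neither passed (Fau -0.27, adjusted p = 0.146; Rpsa -0.19, adjusted p = 0.182). Fau rose with fluoxetine in HT males (0.29, adjusted p = 0.0472) and on average (0.13, adjusted p = 0.0426). Leaving out WT vehicle male replicate 2 moved the latter to 0.10 (adjusted p = 0.0793). Of 78 mitochondrial ribosomal proteins 7 (8.97%) fell in HT vehicle females, where 1.67% of all genes fell, and 0 did without the library labelled WT vehicle female replicate 3. With fluoxetine 5 (6.41%) rose in HT males, where 2.58% of all genes rose. On average 7 (8.97%) rose, such as Mrpl2 (0.17, adjusted p = 0.00407), near the 6.94% of all genes, and 1 fell (Mrpl32, -0.16, adjusted p = 0.0254).

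The other lists had few calls, and on the averages their shares are to be read against those of all genes, of which 6.94% rose and 6.6% fell with fluoxetine and 7.39% rose and 5.74% fell with lithium. Of 16 translation factors and other TOP messages 2 (12.5%) rose with fluoxetine on average, Eif3l (0.11, adjusted p = 0.00685) and Eif4b (0.10, adjusted p = 0.00813), and 2 (12.5%) fell with lithium on average, Pabpc1 (-0.10, adjusted p = 0.00764) and Npm1 (-0.16, adjusted p = 0.028). Of 27 genes of ribosome assembly 1 rose (Nol6, 0.16) and 1 fell (Gtpbp4, -0.12, adjusted p = 0.0459) with fluoxetine on average, 3.7% each, and 1 rose and 2 fell with lithium (3.7% and 7.41%). Gtpbp4 had an adjusted p of 0.0834 when WT vehicle male replicate 2 was left out. Of 15 genes of mTORC1 signalling and TOP control, Mtor (0.29, adjusted p = 0.0224) and Eif4e (0.31, adjusted p = 0.0297) rose in HT vehicle females, Eif4e fell with fluoxetine in HT males (-0.29, adjusted p = 0.0394), and Mtor rose in WT females with fluoxetine (0.28, adjusted p = 0.0412) and with lithium (0.27, adjusted p = 0.0468). The 3 comparisons of Mtor share the WT vehicle females, and without the library labelled replicate 3 none passed: Mtor was at 0.21 (adjusted p = 0.171), 0.19 (adjusted p = 0.211) and 0.19 (adjusted p = 0.264), and Eif4e in HT vehicle females at 0.24 (adjusted p = 0.173). On average 1 of the 15 (6.67%) rose and 2 (13.3%) fell with fluoxetine, and 4 (26.7%) rose and 2 (13.3%) fell with lithium, the latter 3 and 1 without WT vehicle male replicate 2.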

How the data were processed

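Per the labels and the submitters' processing notes, the tools were Salmon 0.11.2, DESeq2 1.19.11 and R 3.6.0, and the build was GRCm38. Neither annotation nor strand setting is given there. The deposited table holds scaled gene counts (a signal): as its values show, read counts over a size factor for each library. Dividing by each library's smallest step gave whole reads within 0.01 for 100% of the values.

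Symbols, lengths and positions came from GENCODE M21 (GRCm38), and promoters from RefSeq. limma 3.58.1 (R 4.3.3; trend, robust) was fitted to log2(normalised count + 1) of all 59 libraries with 1 mean per group, on genes at 10 or more in at least 5 libraries (17875; 213 left out), two-sided, with Benjamini-Hochberg adjustment and a threshold of 0.05. edgeR 4.0.16 and DESeq2 1.42.0 on the recovered reads were alternatives. A fold change on this scale understates the change of low genes. The code was tested on simulated data. Some genes are not reported here.

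Genes, lists and comparisons were chosen with earlier results of these data known. With full values the text names, per comparison, up to 6 members past the threshold in each direction, by smallest p-value, or 2 where none passed; the 5 highest and lowest levels per length; paralogues; Rpsa, Fau and Rack1; Ash1l; the 5 most alike genes; and up to 3 genes per translation list. Rpl5, the copies and Rplp1 in the comparison of the sexes were chosen after their values were seen. A library stood apart where its gap to the next, divided by the group's range, exceeded Dixon's 95% value (0.71 for 5, 0.829 for 4).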

Additional observations from a re-analysis of the deposited data

Results flagged for a closer look

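Libraries that stood apart from the rest of their group by Dixon's criterion were found in 14 of 144 sets of 4 or 5 values (4 library measures and 8 genes, each in 12 groups). Chance gives about 1 in 20 for a single set. The sets are not independent, because the 4 library measures overlap and WT vehicle male replicate 2 recurs in several. The 8 genes were chosen with earlier results known, so the 14 cannot be tested against that rate. WT vehicle male replicate 2 was low in the mean level of the 80 genes (10.56), of the large subunit (10.59) and of the small subunit (10.52), in their share of reads (0.543%), in Rps4x (2818, others 3594 to 3718) and in Rpl22l1 (171, others 445 to 548). HT lithium male replicate 5 was low in their share of reads, 0.742% against 0.819% to 0.850%. For Rps15, HT lithium female replicate 4 was low (3913, others 4777 to 4853) and WT lithium female replicate 4 high (4287, others 3875 to 3952). For Rpl22l1, HT fluoxetine male replicate 5 was low (390, others 620 to 712). Rps27 was high in HT fluoxetine female replicate 2 (146), HT fluoxetine male replicate 5 (254), WT fluoxetine female replicate 1 (256) and WT lithium male replicate 2 (278), where the other libraries of those groups lay between 37.3 and 85.1.

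A difference between the sexes, tested as an interaction with limma, was found for HT against WT in vehicle mice in 25 genes, with Rps15 at -0.48, Rps10 at -0.47, Rpl19 at -0.35, Rps21 at -0.51, Rpl9 at -0.51 and Rpl13a at -0.48. It was found for the response to fluoxetine in 12 genes, with Rpl35a at -0.40, Rps25 at -0.39, Rps21 at -0.44, Rpl32 at -0.30, Rps4x at -0.32 and Rpl17 at -0.41. Both rest in part on the library labelled WT vehicle female replicate 3, without which the counts were 0 and 5. The first count was also 0 when any of several other single libraries, named above, was left out. It was 0 as well after removal of trends with GC content and length and in a fit of only the groups compared. The second test was chosen after the values were seen.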

How the results depend on the processing

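The direction of the median of the 80 genes was the same in all comparisons under all alternatives except for fluoxetine in HT females, where leaving out single libraries gave -0.0071 (HT vehicle female replicate 1) to 0.0749 (HT vehicle female replicate 5); the counts of genes called moved more. For HT against WT vehicle females (10) the count was 16 with edgeR, 21 with DESeq2, 0 with GC content and length trends removed, 0 with only the groups compared, 1 without WT vehicle male replicate 2 and the library labelled WT vehicle female replicate 3, and 0 to 36 with single libraries left out. For the interaction with sex (25) these were DESeq2 39, trends removed 0, only the groups compared 0, without both libraries 0, and 0 to 51. For fluoxetine in HT males (13) they were 22, 6, 5, 41, and 3 to 21; in WT males (2) 9, 4, 0, 0, and 0 to 6. For lithium in WT females (8) they were 25, 0, 0, 0, and 0 to 14. For fluoxetine by sex (12), trends removed gave 5, only the groups compared 4, without both libraries 3, and single libraries 5 to 14. The fluoxetine average (15) was 6 with trends removed and 10 to 23 with single libraries left out, 23 without HT vehicle female replicate 5. These counts, and those that follow, are for the 80 genes alone, without the share of all genes called in the same fit.

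Counts of 0 became 5 with DESeq2, 10 without both libraries and 0 to 2 with single libraries left out for HT against WT fluoxetine males; 2 with DESeq2 and 0 to 2 for the sexes; 1 with DESeq2, 1 with trends removed and 0 to 2 for the lithium average; 1 without both libraries and 0 to 2 for lithium in HT females; and 0 to 1 for lithium in WT males and in HT males. Replicate numbers did not pair the samples (mean residual correlation -0.0112 for the same number and 0.0028 for others; 4 of 59 libraries correlated best with their own number); a replicate block changed the count for lithium in WT females from 8 to 3 and moved no other by over 1.5 times. The alternatives for the 2 drug-by-sex tests and for the genes of the other translation lists were chosen after seeing the data. The number of libraries, 4 or 5 a group, and a possible split of reads between genes and their copies limit these values.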
